A study of Mus musculus with 30 samples.

Results

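Solute carrier mRNAs encode the membrane proteins that move amino acids, sugars, ions, metals, vitamins and metabolites into and between the compartments of a cell. They were taken as genes whose symbol starts with Slc and a digit and that had either an FPKM of at least 5 in 1 of the lines or a half-life in both lines. FPKM express the reads of a gene per length and per sequencing depth. By this rule 160 of 230 listed Slc symbols were members, among 14558 genes in the deposited tables used here. Of these, 140 reached the FPKM limit, 84 had a half-life and 64 had both. A half-life was given for 7 members with FPKM below the limit and for 13 members that are not in the FPKM table used here, so that no level is stated for the latter. The remaining 70 symbols were below the limit and had no half-life. Just inside the limit were Slc39a3, with an FPKM of 5.05 in the Nanos2TAG/+ line and 3.75 in the Nanos2TAG/TAG line, Slc44a4 (0.473 and 5.51) and Slc35d2 (2.77 and 5.52). Just outside were Slc25a15 (4.97 and 3.95), Slc1a2 (0.959 and 4.95) and Slc35b3 (4.56 and 1.82).

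The cells were mouse spermatogonial stem cell (SSC) lines, cultures of the stem cells of the male germline, derived from testes of juvenile mice on a mixed C57BL/6 and DBA/2J background and grown on embryonic fibroblast feeders. Both lines carried a Nanos2 allele with an N-terminal tag (V5, Myc, a PreScission site, His6 and EGFP), on 1 copy in Nanos2TAG/+ line 4 and on both copies in Nanos2TAG/TAG line 5, and each genotype was 1 line. RNA-seq gave 1 library per line, from cells depleted of feeders, with a sort by low scatter that gates out residual feeders per the study's methods, and with QIAzol extraction for the Nanos2TAG/+ library and Trizol for the Nanos2TAG/TAG library per the labels. SLAM-seq labels new RNA with 4-thiouridine and follows the label over a chase, here from 0 to 1440 min in 12 libraries per line, from which the authors fitted 1 half-life per transcript and line without an error. The tagged allele, the line, the culture and the reagent cannot be told apart, differences between the lines have no replicate check, and no p-value is given.

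Solute carriers set which nutrients a cell can take up, and many work in pairs with an accessory glycoprotein that brings them to the cell surface. Most of those of the SLC25 family sit in the inner mitochondrial membrane and exchange metabolites, nucleotides and cofactors with the matrix. In spermatogonia and their culture systems, the entry of glucose, lactate and amino acids is a known determinant of growth, and lysosomal amino acid carriers feed the mTORC1 pathway. Of the 160 members, 4 (Slc9a3r1, Slc9a3r2, Slc4a1ap and Slc7a6os) are named after a carrier and are not transporters themselves.

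Solute carrier mRNAs were expressed at moderate levels in both lines. The 140 members at or above the limit had a median FPKM of 17.5 in the Nanos2TAG/+ line and 18.6 in the Nanos2TAG/TAG line, where all 9624 genes by the same limit had 22.3 and 21.9. The libraries held 10931439 and 11627842 recovered reads, and the members took 0.811% and 0.900% of them. Each of these 140 members had 13 to 3672 reads in the Nanos2TAG/+ library (median 379) and 6 to 5840 in the Nanos2TAG/TAG library (median 392). Ranks were similar in both lines, with a Spearman's rho of 0.904 across the 140 members and 0.907 across all 9624 genes, which are not replicates.

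Differences in FPKM between the lines were called at 2-fold on the log2(FPKM + 0.1) scale. Among the 140 members, 11 (7.86%) were higher and 10 (7.14%) were lower in the Nanos2TAG/TAG line. Across all genes at or above the limit 8.69% were higher and 6.85% were lower, so the shares of the members were near those of all genes. Of these members, 6 of the 11 and 6 of the 10 reached an FPKM of 5 in the line where they were high alone, so their limit favored a difference. The 6 higher ones were Slc44a4, Slc27a2, Slc13a4, Slc29a4, Slc30a2 and Slc4a3. The 6 lower ones were Slc15a2, Slc47a1, Slc16a14, Slc1a4, Slc25a35 and Slc25a26. Where folds and intervals are given below for these, they rest on values that the limit had selected. Among the 115 members at or above the limit in both lines 5 (4.35%) were higher and 4 (3.48%) lower, where 3.99% and 4.11% of 8214 such genes were. The median log2 ratio was 0.14 for the members and -0.02 for all genes, and 83 members (59.3%) were above 0 and 57 below, where 48.4% of all genes were above 0.

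**Figure D1:**
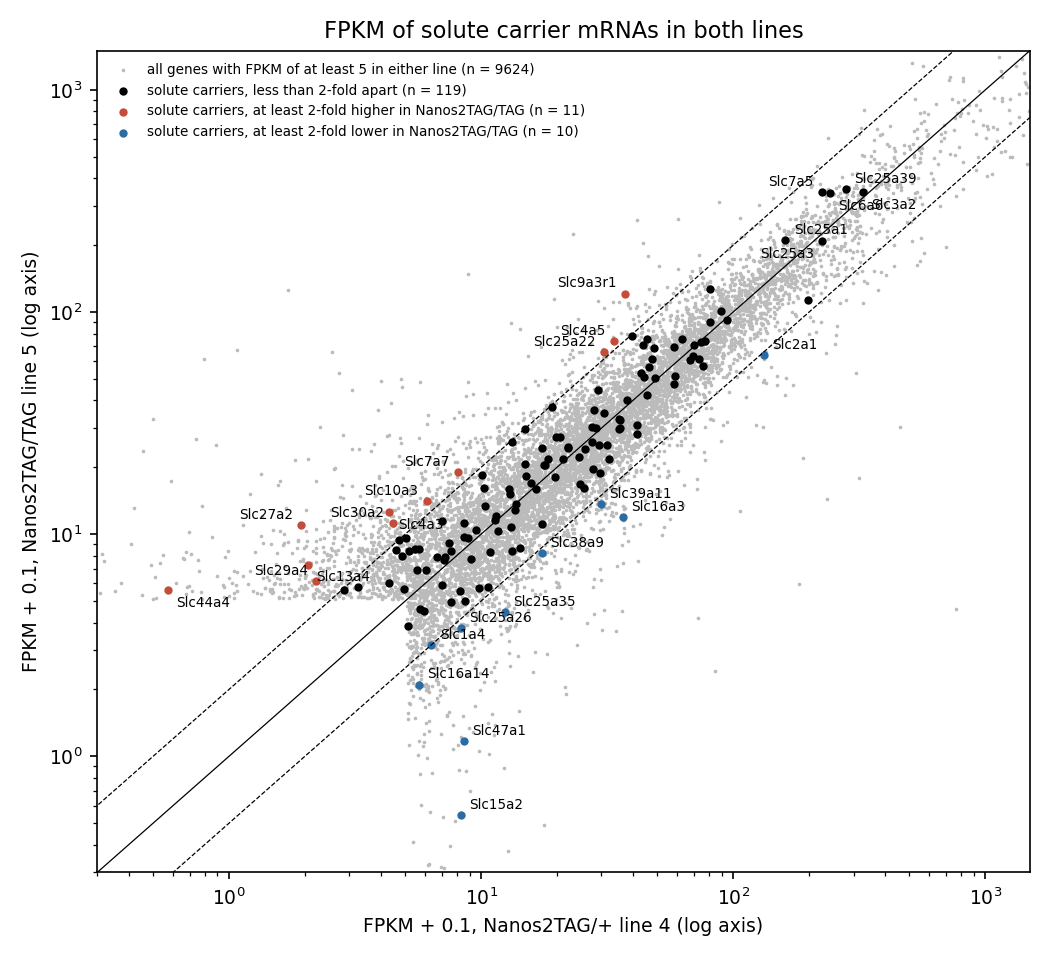
FPKM + 0.1 of solute carrier mRNAs in the Nanos2TAG/+ line (horizontal, log axis) and the Nanos2TAG/TAG line (vertical, log axis). Each point is 1 mRNA in 1 library per line, grey points are all 9624 genes at or above the limit, and the dashed lines mark 2-fold. Most of the 140 members lie between the dashed lines, with 11 above and 10 below, and Slc15a2, Slc47a1 and Slc44a4 lie farthest out.

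The labelled cell type was checked against markers. Of 11 SSC markers, 9 reached the limit, 4 of them (44.4%) were at least 2-fold higher in the Nanos2TAG/TAG line and none was lower, beside 8.69% and 6.85% of all genes (median log2 ratio 0.98, summed FPKM 589 and 1079), and Nanos2 had an FPKM of 27.5 and 23.8. Of 10 fibroblast feeder markers, 9 were listed, 8 reached the limit, 3 (37.5%) were higher and none was lower (median log2 ratio 0.68, summed FPKM 379.7 and 527). With the limit in both lines 1 of 6 (16.7%) was higher, beside 3.99% of all such genes. Of 6 Sertoli cell markers 4 were listed, and Wt1 alone reached the limit (2.51 and 19.6). Of 6 markers of differentiating spermatogonia, 5 reached the limit, all 5 were below 0 on the log2 scale and none of these was past 2-fold (median -0.40, summed FPKM 260.4 and 191). The remaining marker, Sycp3, was below the limit, at 4.59 (54 reads) and 0.632 (8 reads), a log2 ratio of -2.68. No marker that was listed in the FPKM table was at 0. Whether these differences have a part in those of the solute carriers was not tested, and fewer cells of a type and less RNA per cell cannot be told apart in such libraries.

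Amino acid and peptide carriers held some of the highest levels. Slc3a2, the heavy chain that brings several amino acid exchangers to the membrane, had an FPKM of 326 in the Nanos2TAG/+ line and 346 in the Nanos2TAG/TAG line. Its partner Slc7a5, which exchanges large neutral amino acids such as leucine, had 224 and 346, a 1.54-fold difference (exact 95% interval from the reads 1.48 to 1.61, counting error only). The 2 mRNAs of this heterodimer were at a like level in the Nanos2TAG/TAG line. Slc7a1, the arginine and lysine carrier, had 89.4 and 101. Slc1a5, which carries glutamine, had 58.0 and 47.3. Of the 19 members of this group at or above the limit, 1 (5.26%) was higher and 3 (15.8%) were lower, beside 8.69% and 6.85% of all genes. Of the 3 lower ones, 2 reached the limit in the Nanos2TAG/+ line alone. With the limit in both lines 1 of 17 (5.88%) was higher and 1 (5.88%) lower, beside 3.99% and 4.11%.

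The lower ones were the oligopeptide carrier Slc15a2, the lysosomal arginine sensor Slc38a9 and the serine and alanine carrier Slc1a4. Slc15a2 (chr16:36750177-36784962, minus strand, GRCm38) had an FPKM of 8.20 from 103 reads in the Nanos2TAG/+ library and 0.444 from 6 reads in the Nanos2TAG/TAG library, 18.5-fold lower (95% interval 8.20 to 51.5). Slc38a9, which reports lysosomal arginine to mTORC1, had 17.3 and 8.13, 2.12-fold lower (1.81 to 2.50). Slc1a4 had 6.25 and 3.06, just past the limit of 2-fold. The higher one was Slc7a7, an exporter of cationic amino acids, with 8.0 and 18.9 (2.36-fold, 1.86 to 3.01), whose gene overlaps Oxa1l on the other strand.

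A list of amino acid importers and lysosomal sensors held 12 genes. Of these 9 reached the limit, none was at least 2-fold higher and 1 (11.1%) was lower (Slc38a9), beside the 8.69% and 6.85% of all genes, and the median log2 ratio was 0.09. Of 9 amino acid carriers that ATF4, a transcription factor of the amino acid response, is known to induce, 8 were listed and 6 reached the limit, with none higher and 1 (16.7%) lower (Slc1a4, median 0.13). Slc1a4 reached the limit in the Nanos2TAG/+ line alone, and of the 5 at the limit in both lines none was past 2-fold. The cystine carrier Slc7a11, a member of that list, was low in both lines, at 0.995 and 0.783.

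Among the 10 sugar and polyol carriers 1 (10%) was at least 2-fold lower and none was higher, beside 6.85% and 8.69% of all genes. Slc2a1 (chr4:119108711-119137983, plus strand, GRCm38), the basal glucose carrier GLUT1, had an FPKM of 132 from 2094 reads in the Nanos2TAG/+ library and 63.8 from 1088 reads in the Nanos2TAG/TAG library. This was 2.07-fold lower (95% interval 1.92 to 2.23). Slc2a3, the neuronal-type glucose carrier GLUT3, had 48.8 and 50.1. The level of Slc2a1 was above that of Slc2a3 in both libraries, by more in that of the Nanos2TAG/+ line.

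The monocarboxylate carriers went both ways. Slc16a3, known as the lactate exporter MCT4 of glycolytic cells, had an FPKM of 36.4 (614 reads) and 11.8 (215 reads), 3.07-fold lower (2.63 to 3.61). Slc16a1 (MCT1), which moves lactate and pyruvate either way, had 29.6 and 18.8, 1.58-fold lower (1.45 to 1.72). Slc16a14, a carrier of little known substrate, had 5.58 and 2.0. The other 3 of the 6 mono- and dicarboxylate carriers were above 0 and not past 2-fold on the log2(FPKM + 0.1) scale. Slc16a6 had 4.63 and 9.31 (log2 ratio 0.99), Slc16a11 had 14.8 and 29.6 (0.99) and Slc16a13 had 4.76 and 7.84 (0.71).

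A list of 11 genes of glucose, lactate and pyruvate entry held Slc2a1, Slc2a3, Slc16a1 and Slc16a3 themselves and genes that act with them. Of the list, 10 were listed and at or above the limit. Of these 2 (20%) were higher and 3 (30%) lower, beside 8.69% and 6.85% of all genes, with a median log2 ratio of -0.44. With the limit in both lines 1 of 9 (11.1%) was higher and 3 (33.3%) lower, beside 3.99% and 4.11%. The lower ones included Slc2a1 and Slc16a3, which are already given above. The third was Ldha, the lactate dehydrogenase subunit that favors lactate formation, with an FPKM of 553 and 169. It has near-identical copies in the genome, so that its value is less certain. The higher ones were Ldhb, the other subunit, with 1.73 and 21.5, and Emb, an accessory glycoprotein of monocarboxylate carriers, with 20.3 and 48. Bsg, the other such glycoprotein, had 309.7 and 225, and the mitochondrial pyruvate carrier subunits Mpc1 and Mpc2 had 8.25 and 6.16, and 22.5 and 25.4.

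The taurine carrier Slc6a6 had an FPKM of 241 and 342, the third highest level of a solute carrier in the Nanos2TAG/+ line. Of the group of vitamin, choline and heme carriers, the ascorbate carrier Slc23a2 had 198 and 113, 1.75-fold lower (1.66 to 1.86). Slc44a4, which carries thiamine pyrophosphate, had the largest ratio, with 0.473 from 13 reads and 5.51 from 163 reads, 11.7-fold higher (6.63 to 22.4). It reached the limit in the Nanos2TAG/TAG line alone. The other members of the group lay within 2-fold.

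Of the carriers of sodium, potassium, calcium, chloride, bicarbonate and protons, 14 of 18 (77.8%) were above 0 on the log2 scale, beside 48.4% of all genes, with a median log2 ratio of 0.33. None was at least 2-fold lower and 2 (11.1%) were higher, beside 6.85% and 8.69%. These were the chloride-bicarbonate exchanger Slc4a3, with 4.23 and 12.5 (2.95-fold, 2.33 to 3.76), and Slc4a5. Slc4a3 reached the limit in the Nanos2TAG/TAG line alone. The potassium-chloride cotransporter Slc12a7 had the highest level of the group, at 94.3 and 92.0. The scaffold protein Slc9a3r1 (NHERF1), which binds the tails of ion carriers and is no carrier, had 37.2 (782 reads) and 121 (2741 reads), 3.26-fold higher (3.01 to 3.53).

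Of the carriers of zinc, iron, copper, manganese and magnesium, 13 of 20 (65.0%) were below 0, beside 51.6% of all genes, with a median log2 ratio of -0.12. By the mean of both lines the zinc importers Slc39a6 and Slc39a7 had the highest levels of the group, at 80.7 and 90.3 and at 58.5 and 51.6, with the magnesium carrier Slc41a1 next at 47.7 and 61.6. Slc39a11, a zinc importer that overlaps Cog1 and Sstr2 on the other strand, had 29.8 and 13.5, 2.20-fold lower (1.87 to 2.61). Slc30a2, which loads zinc into vesicles, had 4.36 and 11.1 (2.54-fold, 2.04 to 3.18). Of a list of 11 iron-handling genes 8 reached the limit, with a median of 0.12. Of these 1 (12.5%) was higher and none lower, beside 8.69% and 6.85% of all genes. This was the ferrireductase Steap3 (2.14 and 5.56), which reached the limit in the Nanos2TAG/TAG line alone. The iron importer Slc11a2 had 30.6 and 35.1, and the iron exporter Slc40a1 had 4.49 and 8.40.

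The class of mitochondrial carriers takes in every SLC25 member by symbol, and not all of these sit in the inner mitochondrial membrane. It was the largest class, with 31 members, of which 24 reached the limit. Slc25a39, the glutathione carrier of mitochondria, had an FPKM of 279 and 358. The phosphate carrier Slc25a3 had 225 and 209, and the citrate carrier Slc25a1 had 161 and 210.1. Slc25a35 had 12.3 and 4.34 (2.84-fold lower, 2.25 to 3.59) and Slc25a26, which brings S-adenosylmethionine into the matrix, had 8.23 and 3.67 (2.24-fold lower, 1.63 to 3.11). Both overlap another gene on the other strand. Of the 24 members 1 (4.17%) was at least 2-fold higher and 2 (8.33%) were lower, beside 8.69% and 6.85% of all genes. The 2 lower ones reached the limit in the Nanos2TAG/+ line alone. With the limit in both lines 1 of 21 (4.76%) was higher and none was lower, beside 3.99% and 4.11%. Above 0 were 11 of the 24 (45.8%), beside 48.4% of all genes, and the median log2 ratio was -0.08. The adenine nucleotide carriers Slc25a4, Slc25a5 and Slc25a31 are related genes, and some of their reads may be shared, which was not measured here. No FPKM was listed for Slc25a31.

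In the smaller classes, Slc27a2, a fatty acid carrier and acyl-CoA synthetase, had 1.83 (29 reads) and 10.9 (186 reads), 5.96-fold higher (4.02 to 9.15), and all 6 lipid carriers were above 0, beside 48.4% of all genes. The sulfate carrier Slc13a4 had 1.96 and 7.18 (3.66-fold, 2.62 to 5.19). The monoamine and nucleoside carrier Slc29a4 had 2.12 and 6.03 (2.84-fold, 1.94 to 4.23). The cation exporter Slc47a1 had 8.46 (162 reads) and 1.07 (22 reads), 7.92-fold lower (5.06 to 13). Of the 7 carriers of nucleotide sugars and other Golgi and ER substrates at the limit none was past 2-fold, beside 8.69% higher and 6.85% lower of all genes. Slc35a4 and Slc35b4 led that class at 80.7 and 127 and at 74.7 and 73.5. The other 3 members past 2-fold, all higher, were Slc4a5, Slc10a3 and Slc25a22, which are named here for completeness after their values were seen.

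**Figure D2:**
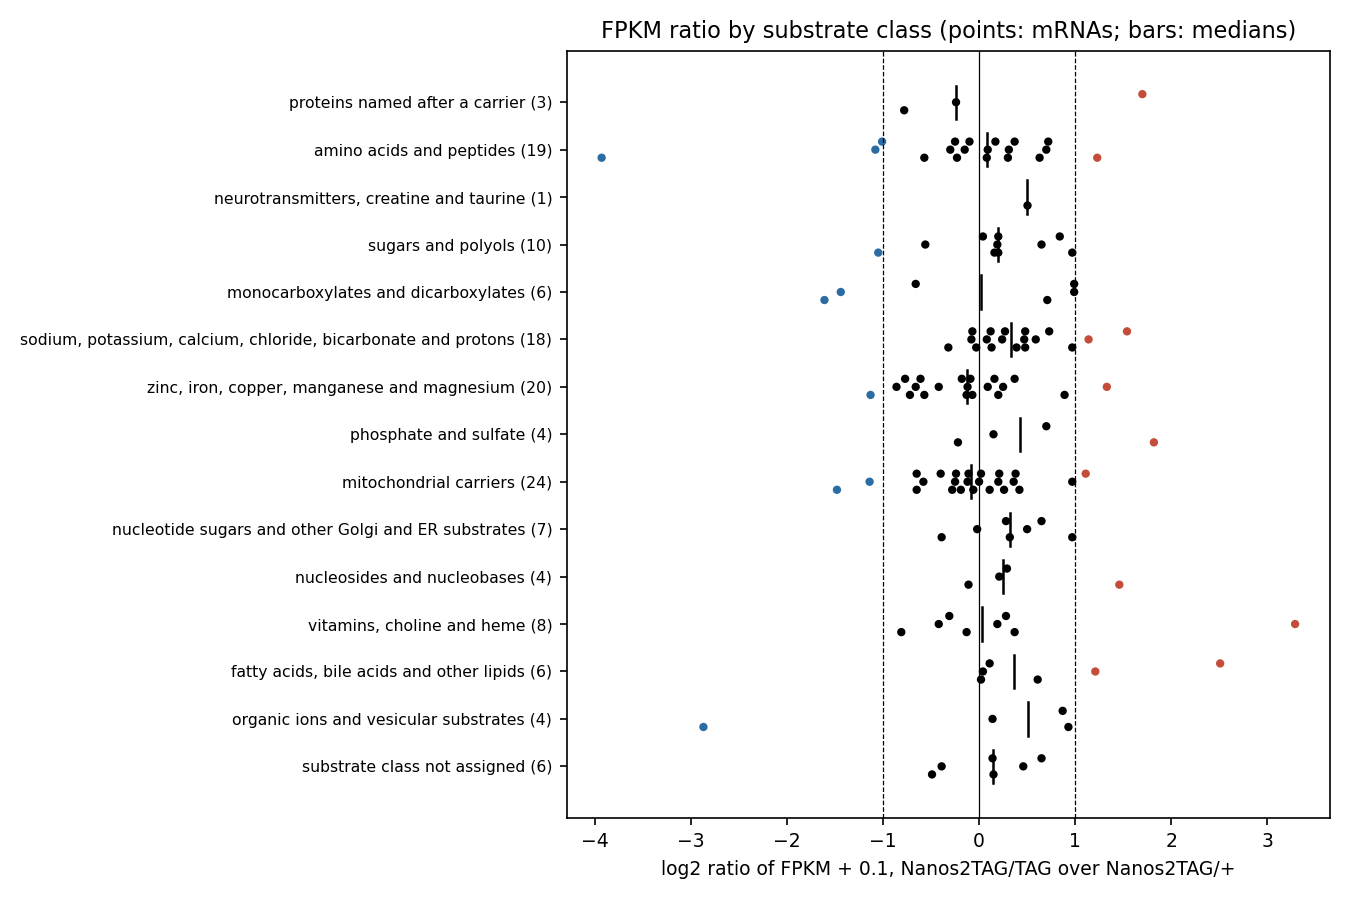
Log2 ratio of FPKM + 0.1, Nanos2TAG/TAG over Nanos2TAG/+, for each of the 140 members at or above the limit (points, 1 library per line) by substrate class, with the number of members in brackets and the class median as a bar. The dashed lines mark 2-fold, and the medians of the larger classes lie between -0.12 (metals) and 0.33 (ions).

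The median half-life of solute carrier mRNAs was below that of all transcripts in both lines, as a description of 1 set of values per line. The median of the 84 members was 196 min in the Nanos2TAG/+ line and 199 min in the Nanos2TAG/TAG line, where all 5806 transcripts had 224 and 226 min. The middle of the members' range (quartiles 140.1 to 244 min and 141 to 254 min) was shifted down from that of all transcripts (162 to 289 min and 159 to 299.8 min). In both lines 48 of the 84 members were below the median of all transcripts and 21 were above, and 15 changed side. Of all 5806 transcripts 2308 were below it in both lines, 2308 were above and 1190 changed side. The shortest quartile of all transcripts in both lines held 20 of the 84 members (23.8%), where it held 15.6% of all transcripts. The longest quartile in both lines held 6 (7.14%), where it held 19.1% of all transcripts.

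Level and half-life were correlated across mRNAs, so the medians were also compared within bands of mean FPKM. Spearman's rho of mean FPKM and mean half-life was 0.555 across the 71 members with both values and 0.511 across 5152 transcripts, as a description across mRNAs whose values share libraries. These 71 members had a median mean FPKM of 23.5, and the 5152 transcripts had 29.3. Below an FPKM of 10, 18 members had median half-lives of 144 min (Nanos2TAG/+) and 147 min (Nanos2TAG/TAG), and all 1030 transcripts had 158 and 156 min. Between 10 and 30, 23 members had 184 and 165 min, beside 203 and 206 min. Between 30 and 100, 24 members had 218 and 225 min, beside 240.1 and 241 min. At 100 or more, 6 members had 281 and 304 min, beside 304 and 318 min. The members' median was lower in each band and in each line, and their share in the shortest quartile was 50%, 21.7%, 12.5% and 0% from the lowest band up, beside 37.2%, 17.2%, 7.70% and 2.02%.

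**Figure D3:**
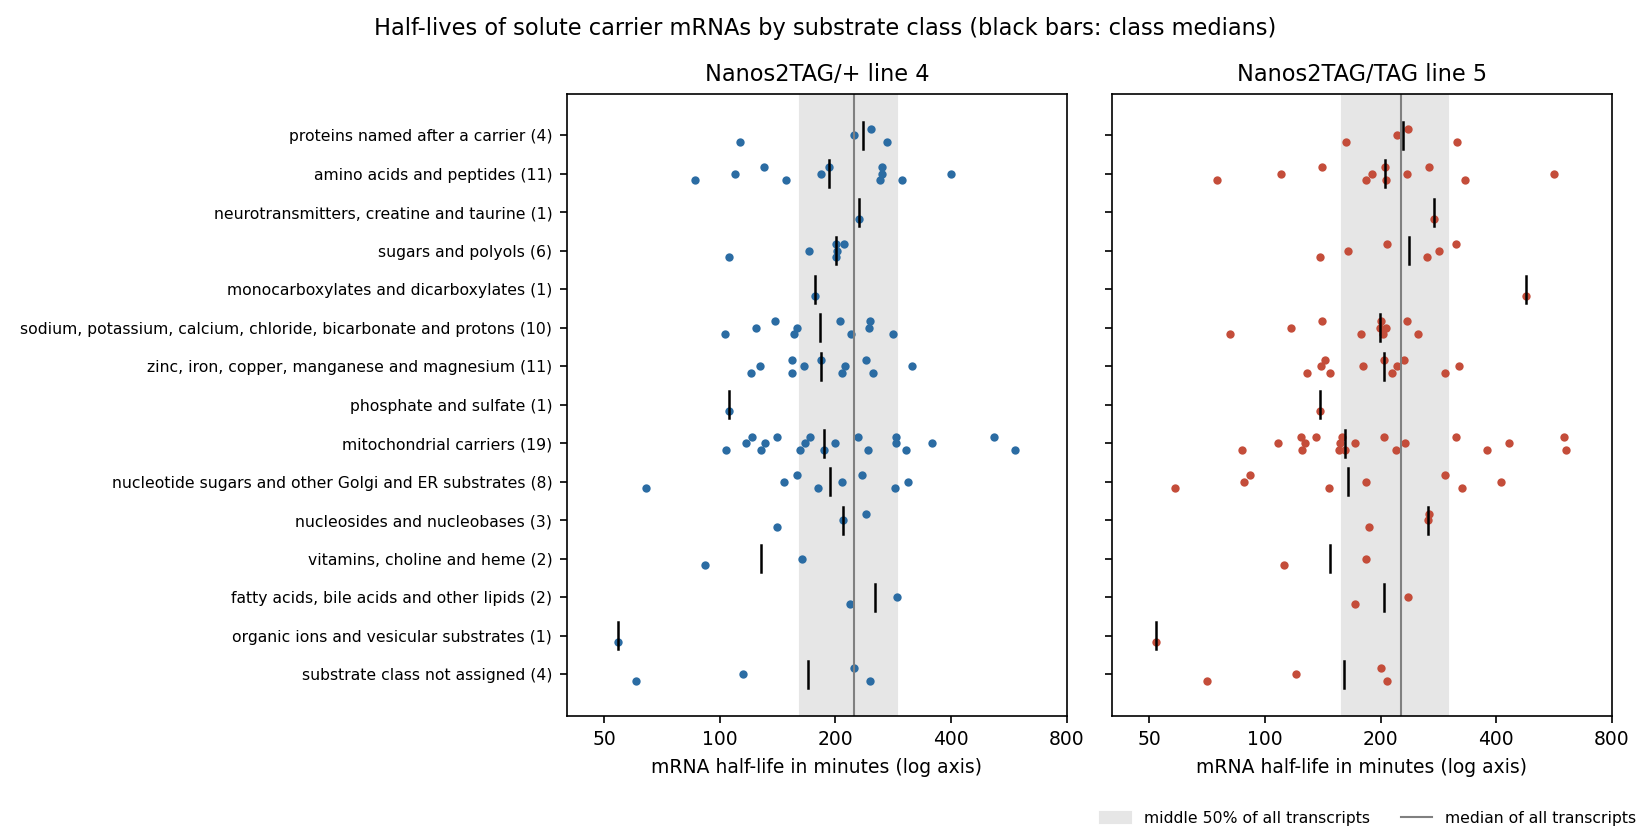
Half-lives in minutes (log axis) of the 84 solute carrier mRNAs with a half-life, in the Nanos2TAG/+ line (left) and the Nanos2TAG/TAG line (right), by substrate class with the number of members in brackets. Points are mRNAs, black bars are class medians, and the grey band and line are the middle 50% and the median of all transcripts (224 and 226 min), to the left of which most class medians lie.

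Half-lives were spread widely within each class. The 19 mitochondrial carriers had medians of 187 and 162 min. Of these, 5 (26.3%) were in the shortest quartile in both lines and 3 (15.8%) in the longest, beside 15.6% and 19.1% of all transcripts. The 11 amino acid carriers had 192 and 206 min, with 3 (27.3%) in the shortest and 2 (18.2%) in the longest quartile. The 11 metal carriers had 184 and 204 min and the 10 ion carriers 182 and 199 min, and neither class had a member in the longest quartile in both lines. The 8 carriers of nucleotide sugars and other Golgi and ER substrates had 194 and 165 min, with 3 (37.5%) in the shortest quartile and 1 (12.5%) in the longest.

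The shortest-lived member was Slc17a5, the lysosomal exporter of sialic acid, with a half-life of 54.4 min in the Nanos2TAG/+ line and 52.1 min in the Nanos2TAG/TAG line. The Golgi carrier Slc35a5 had 64.2 and 58.2 min. The glutamine carrier Slc38a2 had 86.0 and 110.2 min, and the heme carrier Slc48a1 of endosomes had 91.5 and 112 min. Both lines placed these mRNAs in the shortest quartile. The other 4 of the 8 shortest-lived were Slc35f6 (60.6 and 120.5 min), the aromatic amino acid carrier Slc16a10 (109.6 and 75 min), the mitochondrial folate and flavin carrier Slc25a32 (121 and 108 min) and the sodium-proton exchanger Slc9a8 (156 and 80.9 min).

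At the other end were the germ cell adenine nucleotide carrier Slc25a31, with 588 and 601 min, and Slc25a39, with 518 and 609 min. Slc38a4, a neutral amino acid carrier of the same family as Slc38a2, had 399 and 566 min, in both lines far above the half-life of Slc38a2. Slc25a3 had 358 and 432 min, Slc35c2 had 309.7 and 326 min, and Slc3a2 had 299 and 332 min. Its partner Slc7a5 had 262 and 235 min, near the median of all transcripts. Also among the 8 longest-lived by the mean of both lines were Slc35b1, the ATP carrier of the ER (286 and 412 min), and Slc16a3 (177 and 477 min).

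The 3′ UTRs of the short-lived mRNAs were longer in the median than those of the long-lived ones. Lengths were taken from 1 coding transcript per gene in GENCODE M21 on GRCm38. The 20 members in the shortest quartile had 3′ UTRs of 775 to 4739 bases with a median of 2099, and the 6 in the longest quartile had 106 to 2170 bases with a median of 514. Across all transcripts the medians were 1549.5 and 592 bases. Spearman's rho of 3′ UTR length and mean half-life was -0.326 across the 84 members and -0.279 across 5755 transcripts. It was -0.600 across the 19 mitochondrial carriers and -0.203 across the 65 others. Among members with a 3′ UTR of 1500 to 3000 bases, 11 of 23 (47.8%) were in the shortest quartile, beside 17.4% of all transcripts of that length. In the largest band, 500 to 1500 bases, 5 of 29 (17.2%) were, beside 16%. Among those with 3000 bases or more, 4 of 19 (21.1%) were, beside 21.1%, and of 13 members with fewer than 500 bases none was, beside 8.87%.

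The tagged protein, NANOS2, binds mRNA, and its consensus in these cells was searched in the 3′ UTRs on the sense strand as AUGAAAU or AUGAAUU or AUUAAAU or AUUAAUU, with overlaps counted. At least 1 match was found in 65 of 160 members (40.6%). It was found in 38.7% of 12964 genes with a 3′ UTR, which also include genes below the FPKM limit without a half-life. Among those with a half-life it was found in 35 of 84 members (41.7%) and in 41.8% of 5755 transcripts. Members with a match had median half-lives of 154 and 178 min, and those without had 211 and 207 min. For all transcripts these were 196 and 199.8 min, and 245 and 247 min. A longer 3′ UTR holds more matches, and the part of length was not tested. Of the 20 members in the shortest quartile 14 (70.0%) had a match, beside 60.1% of all transcripts there, and of the 6 in the longest quartile 2 (33.3%) had a match, beside 22.9%. The AU-rich heptamer UAUUUAU was found in 50 of 160 members (31.2%) and in 29% of the same 12964 genes. A match is a run of letters and not a binding site that was measured here.

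The first match of each of the extreme members, with 10 bases on either side where the 3′ UTR allowed, is printed to show the sequence around it. The windows are 27 bases of mRNA read 5′ to 3′ from GRCm38, all lie in the 3′ UTR of the last exon, and the capitals mark the heptamer. The first 5 are from the 8 shortest-lived members, the next 2 from the 8 longest-lived, and the last is from the glucose carrier Slc2a1.
Slc17a5, chr9:78538025-78538051, minus strand, exon 11 of 11: uaugguaaucAUGAAAUguuacuaguu
Slc35a5, chr16:45141338-45141364, minus strand, exon 7 of 7: uuuuugaguuAUUAAUUgagcuguaga
Slc38a2, chr15:96689514-96689540, minus strand, exon 16 of 16: uauuaguauuAUGAAAUuauuugccuu
Slc48a1, chr15:97791012-97791038, plus strand, exon 3 of 3: ggccacgacaAUGAAUUcaauggguag
Slc16a10, chr10:40037093-40037119, minus strand, exon 6 of 6: uccuuuuuauAUGAAUUgcagauuucu
Slc25a3, chr10:91116580-91116606, minus strand, exon 8 of 8: aacaugguuuAUUAAAUauggauaaac
Slc38a4, chr15:96995204-96995230, minus strand, exon 15 of 15: ugcugcaaauAUUAAAUauauuuuauc
Slc2a1, chr4:119137211-119137237, plus strand, exon 10 of 10: gguugucaauAUUAAAUacagacacua

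Slc17a5 held 5 matches in a 3′ UTR of 1674 bases, Slc35a5 held 4 in 2574 bases and Slc38a2 held 4 in 2735 bases. Slc16a10 held 2 in 3640 bases and Slc48a1 held 1 in 1969 bases. The other 3 of the 8 shortest-lived members, Slc35f6, Slc25a32 and Slc9a8, had no match although their 3′ UTRs were 1880 to 4739 bases long. Of the 8 longest-lived members 2 had a match, Slc25a3 with 1 in 390 bases and Slc38a4 with 2 in 2170 bases. Slc38a4 is the exception of that end in length too, beside Slc16a3 with 2736 bases.

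**Figure D4:**
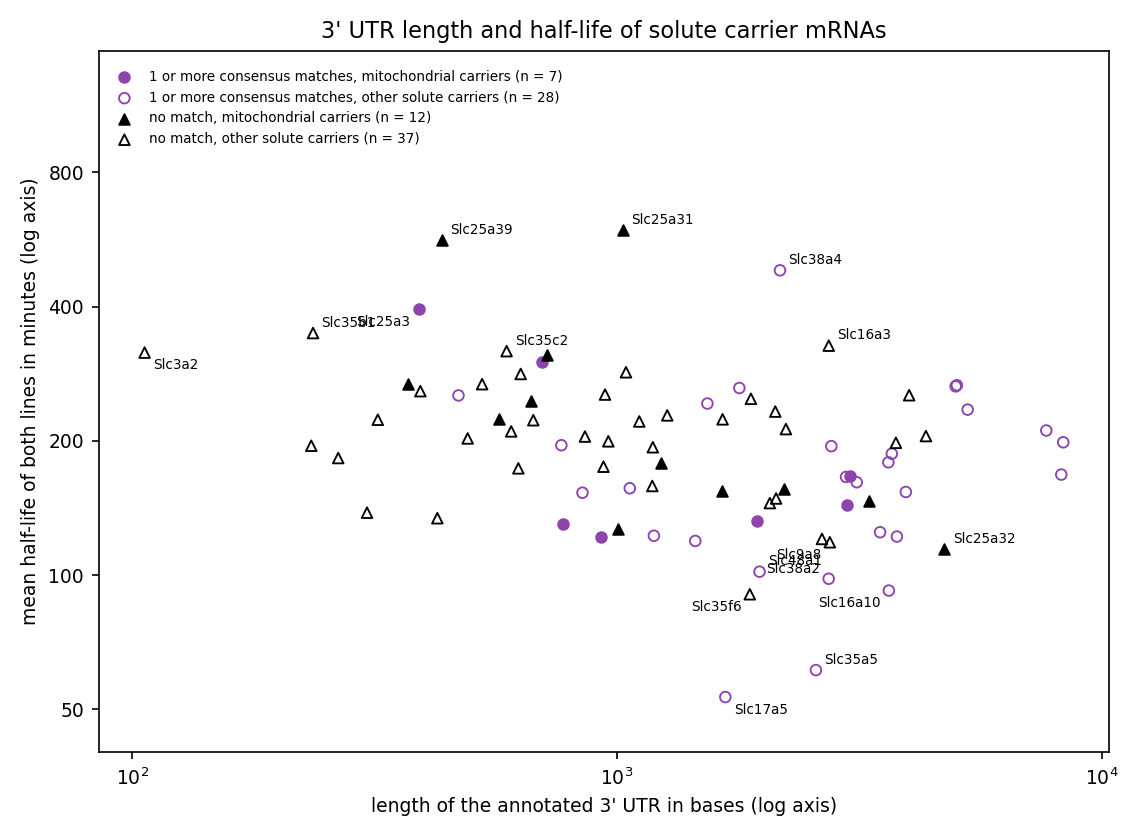
Length of the annotated 3′ UTR in bases (horizontal, log axis) against the mean half-life of both lines in minutes (vertical, log axis) for the 84 members with a half-life. Circles had at least 1 consensus match (35) and triangles none (49), filled symbols are mitochondrial carriers, and labels mark the 8 shortest-lived and the 8 longest-lived; the shortest-lived lie to the right, at 1674 bases or more.

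Half-lives lay within 1.5-fold in both lines for most members. A difference was called at 1.5-fold. Of the 84 members 8 (9.52%) had a longer half-life in the Nanos2TAG/TAG line and 7 (8.33%) a shorter one, where 10% and 10.7% of all transcripts did. The median log2 ratio was 0.05 for members and 0.04 for all transcripts. Spearman's rho between the lines was 0.661 across members and 0.770 across all transcripts.

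The largest ratio was that of Slc2a8, an intracellular glucose carrier, from 106 min in the Nanos2TAG/+ line to 314 min in the Nanos2TAG/TAG line (2.96-fold). Slc16a3 had 177 and 477 min (2.70-fold), Slc35f6 had 60.6 and 120.5 min (1.99-fold), the nucleoside carrier Slc29a2 had 141 and 268 min (1.90-fold), and the sodium-potassium-chloride cotransporter Slc12a2 had 139 and 250.2 min (1.80-fold). Slc35e1 had 115 and 208 min. In the other direction, Slc35f2 had 246 and 70.8 min (3.48-fold shorter), the zinc importer Slc39a1 had 316 and 140.2 min (2.25-fold), and Slc35b2, which brings the sulfate donor into the Golgi, had 180.2 and 88.0 min (2.05-fold). Slc25a26, Slc9a8 and the GDP-fucose carrier Slc35c1 were 1.92-, 1.92- and 1.61-fold shorter. None of these values has an error of its own, and shares of this size were found across all transcripts.

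**Figure D5:**
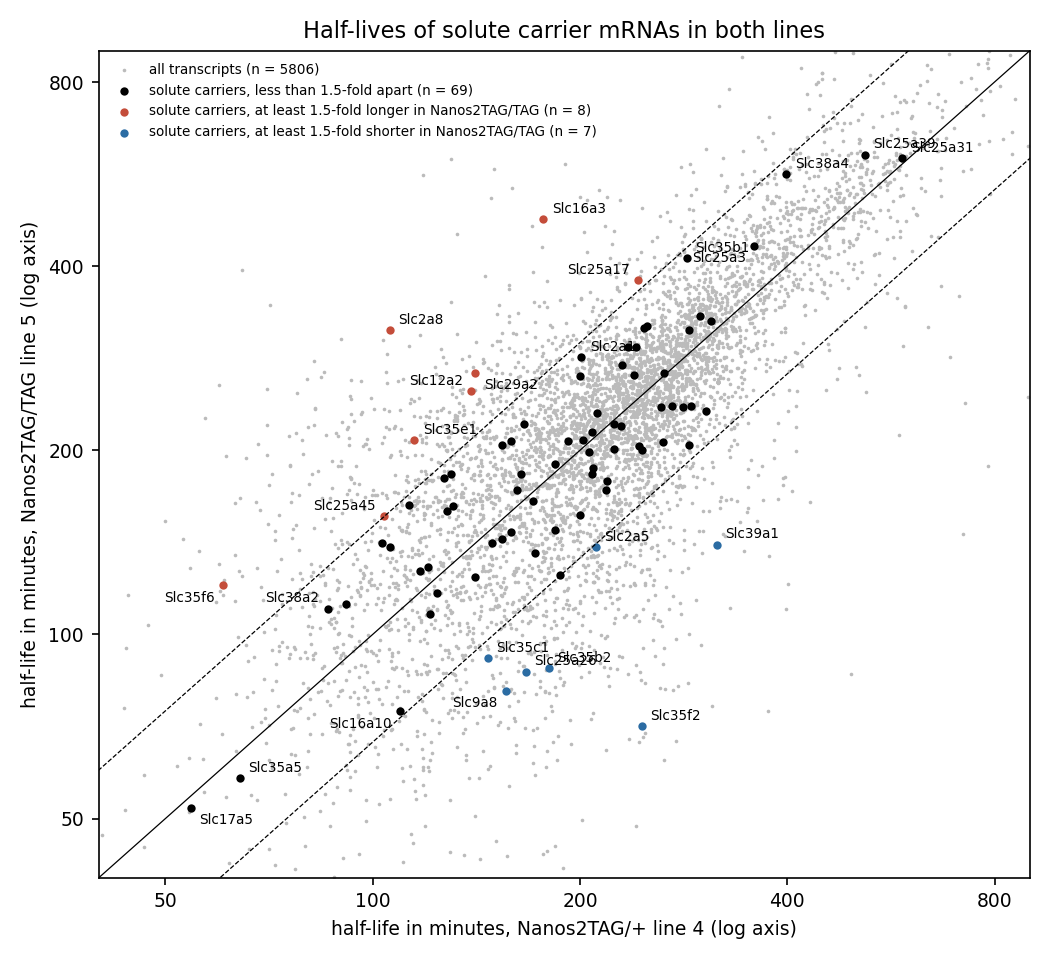
Half-life in minutes in the Nanos2TAG/+ line (horizontal, log axis) against the Nanos2TAG/TAG line (vertical, log axis), 1 value per transcript and line. Grey points are all 5806 transcripts and the dashed lines mark 1.5-fold; 69 of 84 members lie between them, with 8 above and 7 below.

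The ratios of level and of half-life between the lines were set side by side. Among the 64 members with both values, FPKM and half-life were both higher in the Nanos2TAG/TAG line for 22 and both lower for 10, while 18 had a higher FPKM with a shorter half-life and 14 a lower FPKM with a longer half-life. Among all 4792 transcripts with both values at the same limit, these counts were 1205, 1169, 1011 and 1407 in the same order. Spearman's rho of both log2 ratios was -0.025, and 0.008 across 4792 transcripts. Slc2a1 and Slc16a3, both lower in FPKM in the Nanos2TAG/TAG line, had longer half-lives there, at 201 and 284 min and at 177 and 477 min. Slc25a26 was lower in both FPKM and half-life. The scaffold Slc9a3r1, with 3.26-fold more FPKM, had half-lives of 224 and 221 min.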

How the data were processed

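RNA-seq and SLAM-seq values of 2 mouse SSC lines were analysed. FPKM were computed by the authors from ribosomal RNA-depleted RNA, and per the labels kallisto and DESeq2 were used, without versions. The deposited half-lives are a further kind of value, in minutes, obtained by the authors from SlamDunk conversion rates with a fit of exponential decay to 12 libraries per line. Columns were assigned to the lines by their names, since the labels do not link all of them. FPKM times mean GENCODE M21 transcript length gave whole reads (within 0.01) for 100.0% of 13867 genes; FPKM were scaled to 10908790 and 11738620 reads. Fold intervals are exact 95% binomial (Clopper-Pearson) intervals on these reads and cover counting error only. Log2 ratios used a pseudocount of 0.1. Of the members, 27 overlap a coding gene on the other strand, and the use of strand in counting is not given in the sources used here. The members, classes and lists were chosen with earlier results of these data known; the class of proteins named after a carrier, the 3′ UTR comparisons and the bands were added after the tables were seen. Genes were named by rule: the 2 highest of each class of 3 or more, the extremes of both ratios and of half-life, the 10 highest, the lists, and those nearest the limit; 1 gene named by this rule is not reported here. The scripts were tested on simulated data. CRAC libraries were not analysed here. Python 3.11.15, pandas 2.3.3, scipy 1.17.1 and matplotlib 3.10.9 were used.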

Additional observations from a re-analysis of the deposited data

How the results depend on the processing

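With 1 library per line, no difference between the lines has a replicate check, and the half-lives come without depth or error. No paired analysis was possible because no result comes from a test. Of 44 alternatives over 12 results, 35 moved the value by less than the stated limits and 9 by more, and none changed the sign of a median or correlation. Centred on the median of all transcripts, 7 members had a longer and 8 a shorter half-life, in place of 8 and 7. The limits were 1.5 times for a count, the 95% order-statistic interval for a median and the SD of both lines for a Spearman's correlation. With an FPKM limit of 1 in place of 5, 32 of 200 solute carrier mRNAs were at least 2-fold higher and 17 lower. With no limit 36 were higher and 20 lower, since more genes of low FPKM were compared. The shares over all genes at these limits were not computed, so these counts cannot be set against a background. With the limit of 5 in both lines 5 (4.35%) were higher and 4 (3.48%) lower, beside 3.99% and 4.11% of all such genes. The rank correlation of FPKM and half-life was 0.463 in the Nanos2TAG/+ line alone. That of 3′ UTR length and half-life was -0.280 in the Nanos2TAG/TAG line alone and -0.203 without mitochondrial carriers; the cause was not tested. All 84 members with a half-life stayed below 1440 min, where the chase ended. Alternatives on the limit in both lines, reads, overlapping genes and 3′ UTRs were chosen after seeing the data.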

Other observations

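Carriers of the same kinds that are filed under other symbols were given by a list of 31, of which 24 were listed and 18 reached the FPKM limit. Of these 3 (16.7%) were at least 2-fold higher and 1 (5.56%) was lower in the Nanos2TAG/TAG line, beside 8.69% and 6.85% of all genes (median log2 ratio 0.22). With the limit in both lines 2 of 17 (11.8%) were higher and 1 (5.88%) lower, beside 3.99% and 4.11%. Ucp2, a mitochondrial carrier of the SLC25 fold, had an FPKM of 5.99 from 74 reads in the Nanos2TAG/+ line and 31.4 from 417 reads in the Nanos2TAG/TAG line. Mfsd10 had 67.1 and 146, and Mfsd2a, a lipid carrier, had 2.69 and 6.19. The Golgi ion carrier Tmem165 was the lower one, with 67.3 and 31.4. Of the 12 with a half-life, 3 were in the shortest and 3 in the longest quartile in both lines, where 15.6% and 19.1% of all transcripts were. Mpc2 had 491 and 609 min, and Letm1, an ion carrier of the inner mitochondrial membrane, had 311 and 177 min.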
